A study of Bos taurus with 12 samples.

Results

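FHIT is a very large gene on bovine chromosome 22 whose methylation in blood DNA was described here cytosine by cytosine in 12 dairy cows. Its 401 sites are the cytosines of the deposited table that lie in a gene feature and whose host gene is FHIT, of 216990 cytosines in all. The host gene was read from the gene identifier in the annotation (ENSBTAG00000014418), so a site inside FHIT was kept even where another gene start was nearer. The cows came from 1 herd, were 3 to 8 years old and were kept under the same conditions. The 6 cows called subfertile were culled within the year after sampling for reproductive complications not recognised at sampling, and the 6 called fertile remained on the farm free of known fertility problems. The labels give the groups under genotype but name no treatment or allele, and nothing is stated about relatedness among the cows. The tissue is whole blood, a mixture of leukocyte types, and the cell make-up of each sample was not measured.

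FHIT encodes the fragile histidine triad protein, a small enzyme that hydrolyses diadenosine triphosphate and belongs to the histidine triad superfamily of nucleotide-binding proteins. In humans the gene spans the common fragile site FRA3B, where chromosomes tend to break under replication stress, and its loss in many carcinomas led to its description as a tumour suppressor. Almost all of its length is intron. Methylation inside gene bodies is usual in mammalian cells and does not by itself say whether a gene is transcribed, and no expression was measured here.

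The table holds only cytosines that the authors' own group comparison had picked out, and FHIT was taken because it held so many of them. The group differences that follow are therefore a description and carry no test. Values are the percent of methylated calls at a cytosine in a cow. The number of reads behind each value is unknown, so no interval for reading depth can be given. The authors' deposited table gave differences (subfertile minus fertile) of at least 25.4 percentage points in size at FHIT, with the smallest at position 41569468, and a largest q-value of 0.00987. Cytosines below the authors' limits are not analysed here. The share of FHIT sites with a value in all 12 cows was 82.5%, against 81.3% in the whole table.

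In coordinates of ARS-UCD1.2, the annotated FHIT transcript runs from 40819274 to 41605063 on chromosome 22, a span of 786 kb on the forward strand. All 401 sites lay in its introns 1 to 4, between 15.9 and 777 kb from the annotated start, and none lay in a promoter, exon or untranslated region. Intron 1 held 206 sites, intron 2 held 5, intron 3 held 55 and intron 4 held 135. The nearest gene start was that of FHIT for 257 sites. For the other 144 it was that of a gene of another identifier without a symbol. A count by nearest gene would have given 267 sites, 10 of them intergenic.

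FHIT had 51.0 deposited sites per 100 kb. Among the 132 genes with a symbol and an annotated span of at least 500 kb, this was the second highest density, after FBXL17 with 65.2, and the median was 7.58. FHIT ranked 31st in length among them and held the most sites. SDK1, a cell adhesion gene, followed with 44.8 per 100 kb. The 500 kb before FHIT held 23.8 sites per 100 kb and the 500 kb after it 14.8, so the density was higher inside the gene than on either side. Counted once per CpG where both strands were listed, FHIT held 34.5 per 100 kb.

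Both strands were listed for 130 CpGs of FHIT, which account for 64.8% of its sites against 44.2% in the whole table. The strands of these CpGs differed by a median of 5.56 percentage points in a cow, against 5.71 over all such CpGs. The deposited values at FHIT thus repeated between strands to a similar degree as elsewhere in the table.

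Averaged over all FHIT sites, the group means lay close together, because sites of opposite direction offset each other. The lowest, median and highest subfertile cow had 45.5%, 48.7% and 58.5% methylation. The lowest, median and highest fertile cow had 53.9%, 55.4% and 59.6%. The groups overlapped through subfertile cow 1, which stood above 5 of the fertile cows. The means were 50.1 ± 4.52% (SD, n = 6) in subfertile and 55.9 ± 2.01% (SD, n = 6) in fertile cows, a difference of -5.75 percentage points. Of 1031 genes with at least 20 sites, 173 had a smaller difference in size, and the median size was 17.1 points. FHIT was thus rich in selected sites and near the lower end in the net difference of its mean. In bulk blood, a shift in cell types and a change within cells cannot be told apart.

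By direction, the subfertile group was higher at 174 FHIT sites (43.4%) and lower at 227, where 52.1% of all deposited sites were higher. At the higher sites the lowest, median and highest cow had 68.5%, 76.9% and 86.6% in the subfertile group and 5.77%, 43.3% and 64.9% in the fertile group. At the lower sites they had 18.8%, 29.7% and 38.1% in the subfertile group and 47.1%, 68.2% and 91.4% in the fertile group. Selection sets which group is higher in both subsets and favours sites where a cow is extreme in that direction. Fertile cow 5 was at the far end in both, at 5.77% and 91.4%. The spread among fertile cows exceeded that among subfertile cows, with SDs of 22.6 against 7.53 points at the higher sites and 15.9 against 8.50 points at the lower sites.

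The direction changed along the gene. Intron 1 leaned lower in the subfertile group, with 67 of its sites higher and 139 lower and means of 38.5 ± 7.58% and 51.9 ± 6.42% (SD, n = 6 each). Intron 3 also leaned lower, with 13 sites higher and 42 lower and means of 51.4 ± 9.58% and 71.4 ± 15.6% (SD, n = 6 each). Intron 4 went the other way, with 92 sites higher and 43 lower. There the subfertile cows lay within 66.4 to 69.3% while the fertile cows ranged from 32.2 to 69.1%. Fertile cows 1, 2 and 3 had 67.7%, 69.1% and 68.6% in intron 4, inside the subfertile range, and fertile cows 4, 5 and 6 had 48.0%, 32.2% and 49.0%. The mean difference in intron 4 thus rested on 3 of the 6 fertile cows.

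**Figure D1:**
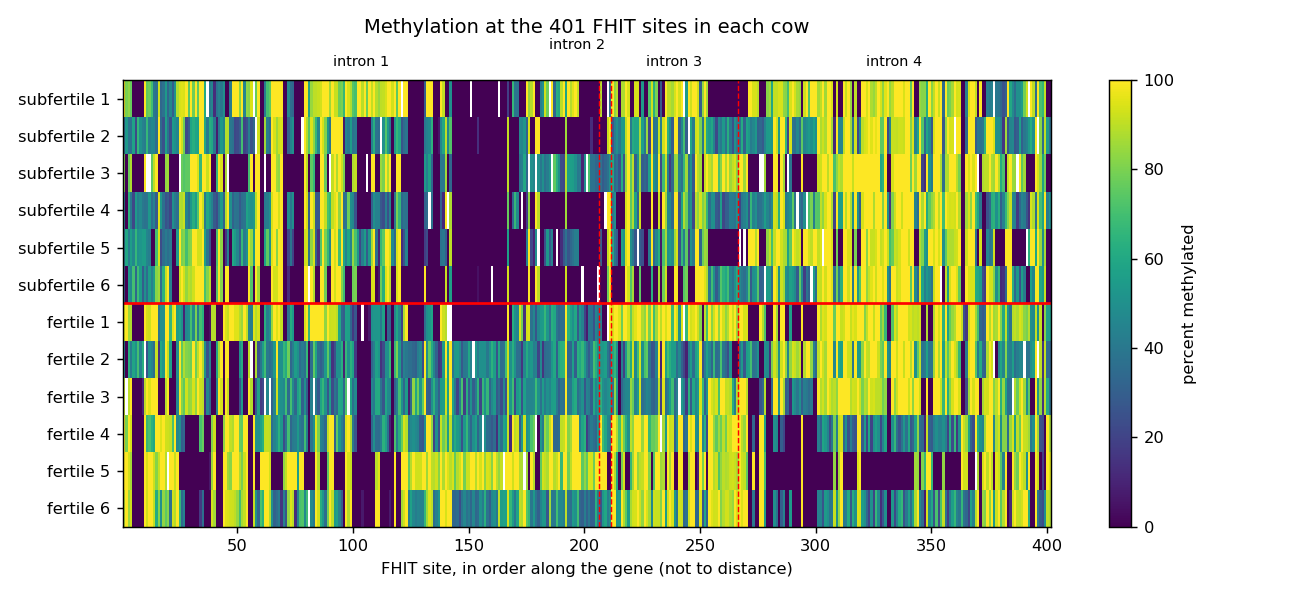
Percent methylated at each of the 401 FHIT sites (columns, in order along the gene and not to distance) in each cow (rows), from 0 (dark) to 100 (yellow), with missing values in white. The red horizontal line parts the 6 subfertile from the 6 fertile cows and dashed lines mark intron borders. Stretches of neighbouring sites share a cow's level, and fertile cow 5 shows few middle levels.

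Windows of 50 kb showed that the direction also changed within introns. In intron 1, 11 of 15 sites were higher in subfertile cows from 100 to 150 kb after the start. The count was 11 of 17 from 250 to 300 kb and 6 of 7 from 300 to 350 kb, also in intron 1. In intron 4, 9 of 26 sites were higher from 750 to 800 kb. From 400 to 450 kb after the start, all 36 sites were lower in subfertile cows. Window means there ran from 6.16 to 13.6% in the 6 subfertile cows. Fertile cow 1 had 18.4%, fertile cows 2, 3, 4 and 6 had 51.4%, 48.6%, 53.2% and 56.0%, and fertile cow 5 had 92.8%. From 650 to 700 kb, 34 of 43 sites were higher in subfertile cows. The subfertile cows and fertile cows 1, 2 and 3 had 73.7 to 84.4% there, fertile cows 4 and 6 had 45.9% and 50.4%, and fertile cow 5 had 24.4%. Fertile cow 5 was thus highest of the 12 from 400 to 450 kb and lowest from 650 to 700 kb.

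**Figure D2:**
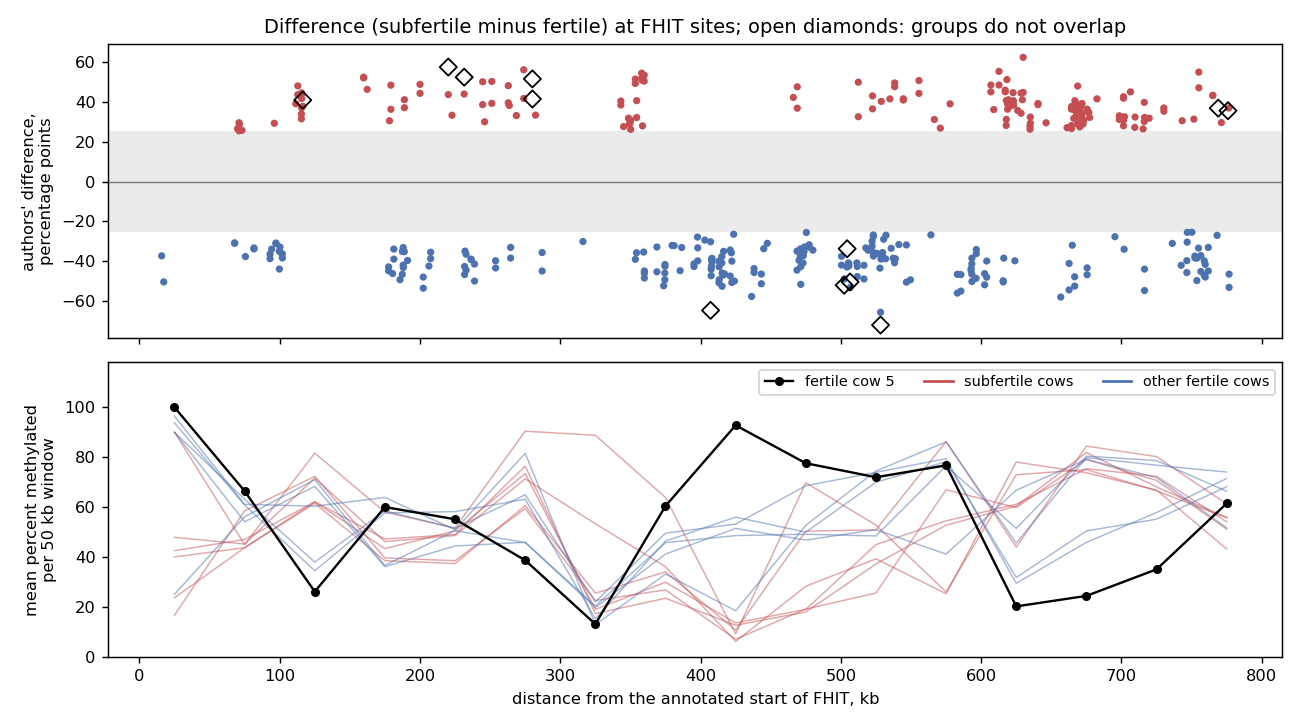
Top, the authors' difference at each FHIT site against distance from the annotated start, with the band of unselected differences in grey and open diamonds at the 12 sites where the groups did not overlap. Bottom, mean percent methylated per 50 kb window in each cow. Fertile cow 5 (black) is at 92.8% from 400 to 450 kb and at 24.4% from 650 to 700 kb.

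Sites were next sorted by the level of each cow, low (under 20%), middle (20 to 80%) or high (over 80%). This gave 231 different patterns over the 12 cows, counting a missing value as a level of its own, and 187 of them occurred at 1 site. At the other extreme, 3 patterns together with their mirror images (low and high exchanged) covered 99 sites, or 24.7% of FHIT. Over the 5 most frequent patterns with their mirror images, the share was 28.2% in FHIT, 51.3% in FBXL17, 31.5% in SDK1 and 27.9% in MTUS2. The median of the 80 genes with at least 100 sites was 35.4%, and FHIT stood 53rd from the highest among them.

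The most frequent arrangement covered 42 sites at 28 CpGs, from 200.0 to 556 kb after the start, 35 of them in intron 1. At 26 of these sites all subfertile cows and fertile cow 1 were low, fertile cows 2, 3, 4 and 6 were at a middle level and fertile cow 5 was high. The subfertile cows had 0 to 0.513% on average there and fertile cow 1 had 0%. Fertile cows 2, 3, 4 and 6 had 45.8%, 48.9%, 42.5% and 43.8%, and fertile cow 5 had 93.4%. The other 16 sites showed the mirror image, with 93.6 to 97.8% in the subfertile cows, 95.5% in fertile cow 1 and 0.568% in fertile cow 5. A mirror image keeps the cows at the middle level by definition, and fertile cows 2, 3, 4 and 6 had 48.8%, 44.3%, 49.8% and 48.7%. The stretches holding the 2 images overlapped, from 202 to 422 kb and from 200.0 to 556 kb. Outside FHIT, 14 of 216589 deposited sites showed either image.

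The second arrangement covered 37 sites at 26 CpGs, 36 of them in intron 4 beyond 600 kb and 1 in intron 1. All subfertile cows and fertile cows 1, 2 and 3 were high, with means from 94.2 to 98.5%. Fertile cows 4 and 6 had 40.9% and 43.2%, and fertile cow 5 had 0%. No FHIT site showed the mirror image. The selected group difference at these sites thus came from fertile cows 4, 5 and 6, while fertile cows 1, 2 and 3 had means of 95.3%, 96.2% and 94.2% beside 94.7 to 98.5% in the subfertile cows. Outside FHIT, 66 sites showed this pattern or its mirror image.

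The third arrangement covered 20 sites at 13 CpGs from 583 to 676 kb and divided both groups. At 12 sites subfertile cows 1 and 5 were at 0%, subfertile cows 2, 4 and 6 had 49.6%, 41.5% and 53.4%, and subfertile cow 3 had 95.2%. Among fertile cows at these sites, cow 2 had 51.0% and the others 93.2 to 96.4%. At the other 8 sites the levels were mirrored, with 95.7% and 95.5% in subfertile cows 1 and 5 and 0% in subfertile cow 3. Sites of this and the preceding arrangement alternated within this stretch, changing from one to the other 10 times along 48 sites. Neighbouring sites could thus single out different cows. Outside FHIT, 3 sites showed either image of this arrangement.

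**Figure D3:**
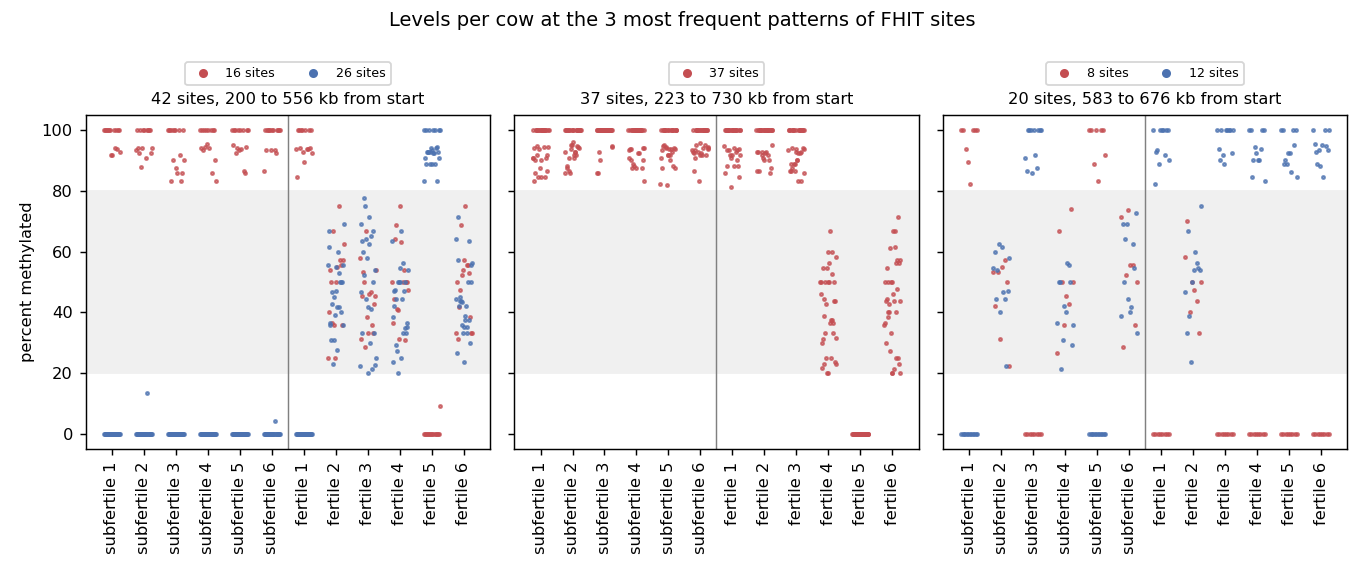
Percent methylated in each cow at the sites of the 3 most frequent patterns, each panel with the number of sites and their range from the annotated start. Each point is 1 site, colours part a pattern from its mirror image, the grey band marks the middle level and the vertical line parts the groups. Fertile cow 5 is at 0% at all 37 sites of the middle panel and fertile cows 4 and 6 average 40.9% and 43.2%.

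Smaller sets of sites divided the cows in other ways. At 5 sites from 345 to 359 kb, subfertile cow 1 had 98.7%, subfertile cow 5 had 46.2% and the other 10 cows had 0 to 1.25%. At 7 sites from 471 to 511 kb, subfertile cow 1 had 93.9%, subfertile cows 3 and 5 had 42.6% and 34.1%, and subfertile cows 2, 4 and 6 had 0%. Fertile cows 4 and 5 had 94.7% and 97.3% at these 7 sites, and the other fertile cows 47.2 to 48.7%. At 5 sites from 70.0 to 73.1 kb, subfertile cows 2, 4, 5 and 6 and fertile cow 2 had 41.2 to 57.1%, and the other cows 0 to 2%. This last pattern or its mirror image was also found at 19 of 119 sites in the 500 kb before FHIT and at 7 of 74 sites in the 500 kb after it. The 3 most frequent arrangements were found at 0 sites of the former stretch and at 1 site of the latter.

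The share of middle levels differed between cows at FHIT far more than over the whole table. Fertile cow 5 was at a middle level at 26 of 397 FHIT sites (6.55%), with 165 low and 206 high. Subfertile cow 1 was at a middle level at 22.5% of its sites and fertile cow 2 at 65.1%. Over all deposited sites the cows ranged only from 35.9% to 43.9%, with fertile cow 5 at 43.7%. Such a range over cows was not particular to FHIT. Its 58.5 points stood 66th among the 80 genes with at least 100 sites, whose median was 75.1 points, and the 6.55% of fertile cow 5 stood 83rd from the lowest among 960 pairs of a gene and a cow. In the 500 kb before FHIT, fertile cow 5 was at a middle level at 12.8% of sites. Subfertile cow 3 and fertile cows 1 and 4 had lower shares there, at 6.96%, 11.8% and 11.9%. In the 500 kb after FHIT, fertile cow 5 had the lowest share of all cows, at 10.8%.

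**Figure D4:**
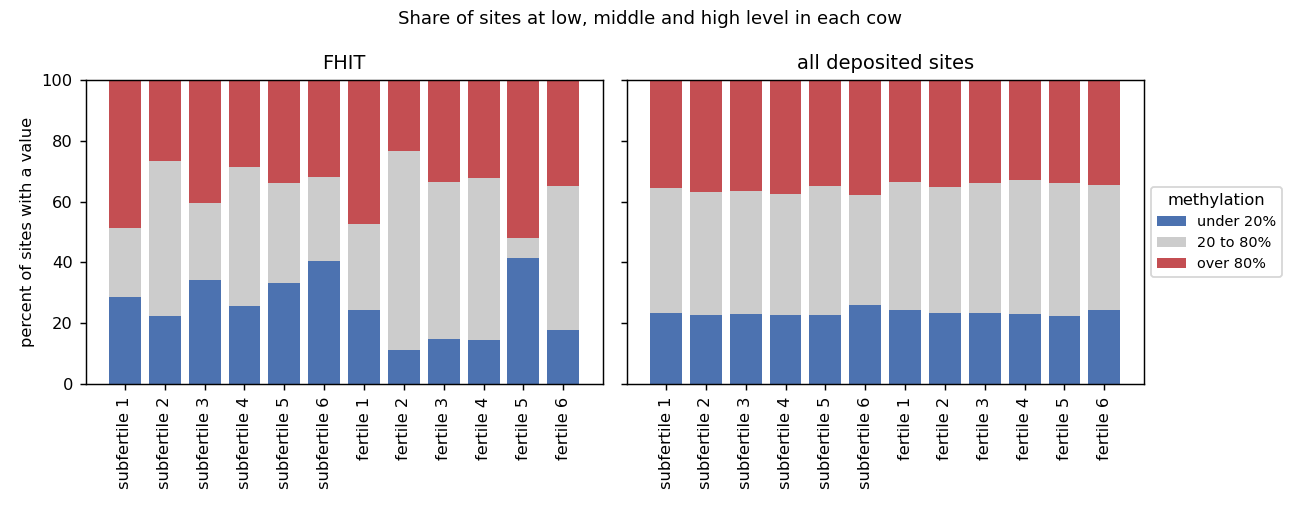
Share of sites with low (under 20%), middle and high (over 80%) methylation in each cow, at FHIT (left) and over all deposited sites (right). The middle share runs from 6.55% in fertile cow 5 to 65.1% in fertile cow 2 at FHIT and from 35.9 to 43.9% over the table.

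Sites are termed genotype-like where the lowest cow lay below 10% and the highest above 80%. This held for 356 FHIT sites (88.8%), against 69.9% of all deposited sites. The share was 85.8% in FBXL17, 84.7% in MTUS2 and 65.6% in SDK1, so a high share was not particular to FHIT. No genotypes were analysed here, so the part of sequence differences between cows in these levels was not tested.

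Cow pairs were compared by the mean absolute difference of their levels over FHIT sites. Subfertile cows 2 and 4 were most alike, differing by 12.7 points, followed by fertile cows 4 and 6 with 15.5 points. Subfertile cow 5 and fertile cow 5 were least alike with 76.4 points. Over the whole table the 66 pairs lay between 26.6 and 44.3 points. The pair values at FHIT thus reached below and above those of the table, and pairs of different groups ranged from 23.1 to 76.4 points. The table's values average over many genes, and pair values of other single genes were not computed. The wider range is therefore not read as particular to FHIT.

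At 12 FHIT sites (2.99%) no fertile cow overlapped a subfertile cow, 7 higher and 5 lower in the subfertile group. Over all deposited sites 3.1% did so, 1.94% with the subfertile group higher and 1.16% with it lower. Since the sites were selected on this contrast nothing is read from the count. It was 79 (19.7%) without fertile cow 1, where the table had 4.82%. It was 35 (8.73%) without subfertile cow 3, 31 (7.73%) without fertile cow 2 and 22 (5.49%) without subfertile cow 1. The table had 4.64%, 4.91% and 4.76% in that order. Leaving out a cow can raise such a count but not lower it. Leaving out fertile cow 1 thus most often left the groups without overlap. At the most frequent arrangement that cow stood with the subfertile cows, low at 26 sites and high at 16. At the second, fertile cows 1, 2 and 3 were all high, so leaving out cow 1 alone could not part the groups.

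The authors' largest difference at FHIT lay at position 41347571 in intron 3 (-72.2 points in the authors' deposited table). Subfertile cows 2 and 3 had 38.9% and 33.3% there and the other 4 had 0%. The fertile cows had 40% in cow 3, 71.4% in cow 2, 83.3% in cow 1 and 100% in cows 4, 5 and 6, so the groups did not overlap. On the other strand of the same CpG, at 41347572, subfertile cow 2 had 84.6% and the groups overlapped. Non-overlap at this CpG thus depended on the strand.

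At position 41226405 in intron 1, 4 of 5 subfertile cows had 0% and subfertile cow 2 had 45.5%, while the fertile cows had 55.6 to 100% (n = 5). Subfertile cow 4 and fertile cow 1 had no value there. Fertile cow 1 had a mean of 0% in the block that begins at this site, taken over the block's sites where it had a value. Its level at this site is unknown, so the lack of overlap covers only the cows with values. At 41475996 in intron 4 the subfertile median was 15.6% and the fertile median 81.0%, with overlap. At 41255629 in intron 1 the subfertile median was 0% and the fertile one 66.4%, and subfertile cow 1 (66.7%) lay inside the fertile range. These sites complete the 5 largest negative differences.

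The largest positive difference lay at 41449188 in intron 4 (62.6 points in the authors' deposited table). The lowest, median and highest subfertile cow had 0%, 62.0% and 100%, and the fertile cows were at 0% except cow 2 with 33.3%. At 41431981, also in intron 4, the subfertile cows had 0%, 52.9% and 93.8% in that order and the fertile cows were at 0% except cow 2 with 40%. At 41574430 the subfertile median was 95.8% and the fertile median 36.0%. Subfertile cow 3 was at 0% at the former pair of sites, like most of the fertile cows.

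Positions 41039454 and 41093203 in intron 1 complete the 5 largest positive differences. At 41039454 the subfertile cows had 94.1 to 100% and the fertile cows 0 to 84.6%, without overlap. At 41093203 they had 91.7 to 100% and 0 to 92.9%, and the overlap was that of fertile cow 1 alone. The remaining sites without overlap in intron 1 were 40935722, 41050782, 41099407 and 41099408, higher in subfertile cows, and 41321658, 41323754 and 41325829, lower. At 41099407 and 41099408, both strands of 1 CpG, the subfertile cows had 70 to 100% and 80 to 100%, and the fertile cows 0 to 60% and 0 to 63.2%. This was the one CpG of FHIT with non-overlapping groups on both strands. In intron 4 the sites were 41588274 and 41595200. At 41595200 the subfertile cows had 35.7 to 66.7% and the fertile cows 0 to 23.8%, with no cow high in either group.

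Neighbouring FHIT sites at most 1 kb apart were joined into 147 clusters, of which 51 held 1 site and 52 held a pair. The other 44, called blocks, held 246 sites (61.3%), with a median length of 958.5 bases. Block means were higher in subfertile cows in 17 and lower in 27. In 20 blocks (45.5%) sites of both directions occurred together, against 24.0% of the 17806 blocks built the same way over the table. The mean of such a block averages sites of opposite direction, so it can be at a middle level where single sites are not. No FHIT block mean separated the groups without overlap, and 4.09% of blocks in the table did, 2.63% higher and 1.45% lower in the subfertile group. With other gaps between neighbours (500 bases, 2 kb and 5 kb) the count was 1, 1 and 2.

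The largest negative block differences formed a series in intron 1 from 374 to 421 kb. The blocks starting at 41192941 (5 sites), 41232354 (4 sites), 41234400 (9 sites) and 41240435 (5 sites) had subfertile means of 0 to 1.48% in every cow and 0% in fertile cow 1. In the same blocks fertile cow 5 had 95.7%, 96.2%, 92.8% and 90.9%, and the other 4 fertile cows 31.5 to 69.7%. The block at 41226405 (8 sites) had 4.17 to 14.8% in subfertile cows, 0% in fertile cow 1 and 89.5% in fertile cow 5. The fifth of the largest negative differences lay in intron 3 at 41412108 (6 sites). It had 0% in subfertile cows 1 and 5, 87.9% in subfertile cow 3 and 85.8 to 91.5% in all fertile cows but cow 2, which had 42.4%.

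Of the largest positive block differences, 4 lay in intron 4. The block at 41447699 (5 sites) had 58.5 ± 36.4% in subfertile and 15.9 ± 29.0% in fertile cows (SD, n = 6 each). Subfertile cow 3 and fertile cows 1, 4, 5 and 6 were at 0% there. The block at 41436415 (9 sites) ranged from 42.9 to 89.2% in subfertile and from 0 to 71.9% in fertile cows. The blocks at 41489536 (9 sites) and 41454093 (4 sites) had 92.5 to 96.9% and 85.1 to 96.3% in subfertile cows, and 0% in fertile cow 5. Fertile cows 1, 2 and 3 had 93.6 to 97.0% at the former and 92.1 to 94.3% at the latter. The block at 40934735 in intron 1 (8 sites) had 61.0 to 94.3% in subfertile cows, and 18.5%, 0% and 6.63% in fertile cows 4, 5 and 6.

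The block with the most sites started at 41485285 in intron 4 and held 16, of which 14 were higher. It had 78.2 to 85.7% in subfertile cows, 78.6 to 82.1% in fertile cows 1, 2 and 3, and 43.1%, 12.2% and 41.8% in fertile cows 4, 5 and 6. Other large blocks mixed directions. The block at 41177259 held 10 sites, 6 of them higher. Its means were 95.8% in subfertile cow 1 and 38.7 to 65.1% in the other 11 cows. Such middle means can average opposite levels, as in fertile cow 5, which had a mean of 40% from sites at 0% or 100%. The block at 41006644 held 9 sites, 2 of them higher, with 18.9 to 87.5% in subfertile and 25.3 to 82.4% in fertile cows. The blocks of 8 sites at 41341524 and 41347140 in intron 3 held 2 and 1 higher sites, with subfertile means of 59.8 ± 9.02% and 40.1 ± 16.2% against fertile means of 72.6 ± 16.3% and 73.1 ± 18.9% (SD, n = 6 each).

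How far the likeness between sites reached was measured after taking each group's mean out of each site. The difference between group means therefore did not enter. Selection can still shape these values, because it favours sites where a cow is extreme. Pearson's r was then taken over the cows for each pair of FHIT sites. The points share cows and, at short distance, reads. The median size of r was 0.899 between the strands of a CpG (130 pairs) and 0.792 at up to 1 kb (433 pairs). It was 0.665 from 1 to 10 kb (2700 pairs), 0.372 from 10 to 100 kb (18581 pairs) and 0.329 over 100 kb (58356 pairs). Between FHIT sites and sites of FBXL17 (chromosome 7), MTUS2 (chromosome 12) and SDK1 (chromosome 25) it was 0.188, 0.244 and 0.206. Likeness within FHIT thus fell with distance and at over 100 kb was still above the values between chromosomes.

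Other genes with at least 100 sites had medians of 0.801 from 1 to 10 kb and 0.530 from 10 to 100 kb, ranging from 0.271 to 0.923 in the latter class. FHIT lay below the middle of these genes in both classes. At up to 1 kb, 25.2% of FHIT pairs had opposite deposited directions, and the median r of such pairs was -0.274, against 0.869 for pairs of like direction. In FBXL17 and SDK1 the medians for opposite pairs were -0.702 and -0.576.

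**Figure D5:**
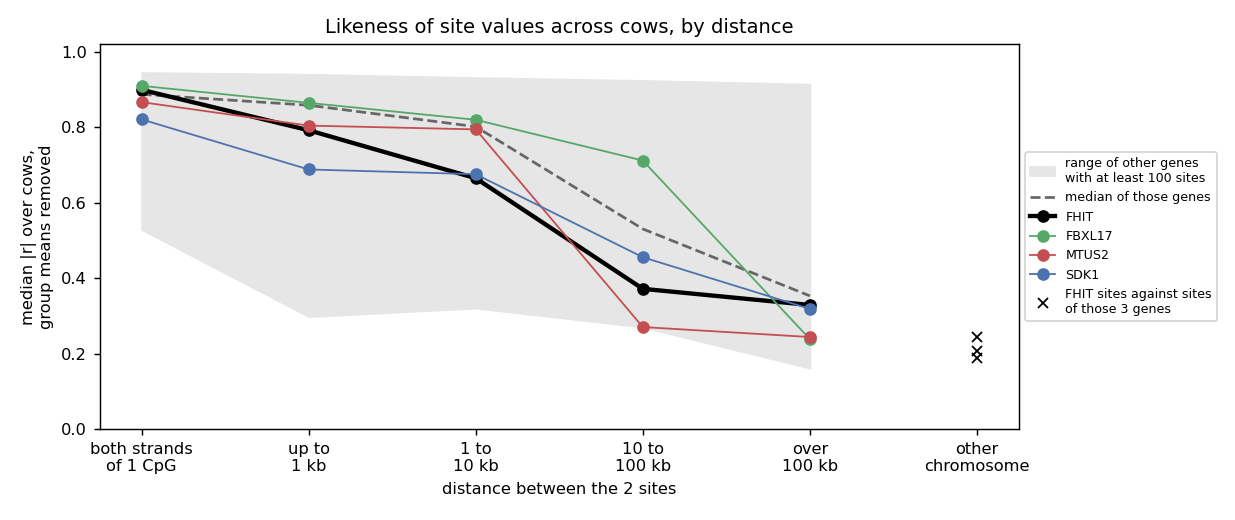
Median size of Pearson's r over cows between pairs of sites, with group means removed, by distance between the sites, for FHIT and 3 comparison genes. The grey area spans the other genes with at least 100 sites, the dashed line is their median and crosses are pairs of FHIT sites with sites on other chromosomes. FHIT runs from 0.899 between strands to 0.329 at over 100 kb.

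Since the sites were selected on the difference between these cows, the following counts are a description and no support for it. With plain means of the cows, 383 of 401 sites (95.5%) differed by at least 25 points. Leaving out fertile cow 5 left 310 (77.3%), the lowest count, and leaving out any other cow left 344 to 383. Over the whole table, leaving out a cow left 82.6 to 87.0%. The 77.3% stood 37th from the lowest among the lowest values of the 80 genes with at least 100 sites, whose median was 78.6%.

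In the 500 kb before FHIT, 22 of 119 sites were higher in subfertile cows, with means of 51.0 ± 8.80% and 72.5 ± 7.26% (SD, n = 6 each). In the 500 kb after it, 21 of 74 were higher, with 60.0 ± 8.16% and 72.9 ± 3.95% (SD, n = 6 each). Both flanks thus leaned lower in subfertile cows, as intron 1 did and intron 4 did not. Along chromosome 22 outside FHIT, 51.3% of 7660 sites were higher.

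Beside the gene lists that follow, 36.4% of 21666 protein-coding gene symbols in RefSeq (ARS-UCD2.0) held a deposited site. Of 8569 genes with any site, 52.1% had a higher mean in subfertile cows, and the median difference was 1.93 points. Gene length, which sets how many sites a gene can hold, was not matched.

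Genes known as neighbours of FHIT in the human 3p14 order were taken as a list. Of 18, 14 held deposited sites, and all of these lay on bovine chromosome 22. The mean was higher in subfertile cows in 6 and lower in 8, with 151 sites higher and 143 lower and a median difference of -0.858 points. The largest were PTPRG, a receptor tyrosine phosphatase gene (57 sites, 56.4 ± 13.4% against 68.0 ± 5.85%), and KCTD6, a ubiquitin ligase adaptor gene (48 sites, 41.1 ± 23.6% against 7.70 ± 3.16%). Subfertile means come first, with SD and n = 6 in each group.

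Among 8 other genes of the histidine triad superfamily and of dinucleoside polyphosphate hydrolysis, 1 held sites. This was DCPS, the scavenger decapping enzyme gene, with 13 of 14 sites higher in subfertile cows (43.6 ± 18.9% against 18.6 ± 14.4%; SD, n = 6 each). Among 29 other large genes associated with common fragile sites, 21 held sites, with a higher mean in 9 and a lower one in 12. The median of their differences was -2.61 points, beside -5.75 for FHIT, and some of these genes held few sites. DPP6 held 176 sites (150 higher), CTNNA3 159 (65 higher) and PTPRD 122 (35 higher). No common direction was seen in this list.

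Of blood cell markers, 5 of 10 T cell genes, 6 of 8 B cell genes, 5 of 6 natural killer cell genes, 0 of 6 monocyte genes and 3 of 8 neutrophil genes held sites. Means were higher in subfertile cows in 3, 5, 2 and 2 of those with sites, in that order without monocytes. The part of blood cell make-up in the FHIT levels was not tested.

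The per-cow FHIT mean, with group means removed, was set against that of 1030 other genes with at least 20 sites over the 12 cows. The most like were CACNA2D3, a calcium channel subunit gene (r = 0.846, 112 sites), PROM1 (0.779, 72 sites), SPATA5 (0.766, 23 sites), ARHGEF3 (0.764, 201 sites) and DBH (0.758, 93 sites). CACNA2D3 and ARHGEF3 lie on chromosome 22, 4.97 and 2.80 Mb from FHIT by the median positions of their sites. The most opposed was UTRN on chromosome 9, named after its value was seen (r = -0.898, 62 sites). These are the highest of many values over few cows and are given as a description.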

How the data were processed

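Blood (1 mL per cow, per the labels' protocols) gave DNA that was converted enzymatically, so that methylated and hydroxymethylated cytosines were read alike, and sequenced. Tools named in the submitters' processing notes are ChIPseeker 1.32.1, DRAGEN, Bismark and fastp 0.23.1, with ARS-UCD1.2 as genome build. The sources used here do not name the program that tested the groups, the read minimum or the weighting of the difference. Per the file headers, the authors deposited a percent methylated for every cow at a cytosine, together with their group difference (in percentage points) and its p-value and q-value. Each cow's column was identified through the animal number in its name. Those names begin with F for cows labelled subfertile and R for cows labelled fertile. The labels were followed. What the letters stand for is not stated, and if F marked the fertile cows all directions would be inverted.

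Counts, means, patterns, blocks and correlations were computed with Python 3.11.15, pandas 2.3.3 and numpy 2.4.6, and the functions were tested on simulated data. Sites missing in a cow were left out of that cow's mean. The 12 cows differ as single animals, with 6 per group. Named were the 5 sites with the largest deposited difference in each direction, the 10 sites without overlap that differed most (the other 2 of 12 were added after their values were seen), and the blocks with the most sites (10) or the largest differences (5 each way). Also named were the 5 genes most like FHIT, the comparison genes FBXL17, MTUS2 and SDK1, and up to 4 genes per list. FHIT and the lists were chosen with earlier results of these data known. Arrangements of cow levels were picked by their frequency after the values were seen.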

Additional observations from a re-analysis of the deposited data

Results flagged for a closer look

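In 17 of 84 groups of 6 or fewer cows tested, over 42 FHIT values, the gap from 1 cow to the nearest other cow, divided by the range of the group, was above Dixon's critical value at 95%. The ratio is relative, so a gap can be small in percentage points, and it is 1 by construction where all other cows tie. Chance flags about 1 in 20 groups under the normal distribution, a rate that was not tested for values tied at 0 or 100%. These are given as values only.

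Among broader means, subfertile cow 1 was the extreme cow in intron 1, at 53.5% with the next cow at 38.2% (ratio 0.741). Fertile cow 2 stood apart in the block at 41412108, at 42.4% with the next at 85.8% (ratio 0.884), and in the block at 41447699, at 72.1% with the next at 23.1% (ratio 0.68). In the block at 41234400 subfertile cow 2 had 1.48% and the next cow 0.543% (ratio 0.633).

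Fertile cow 2 also stood apart at single sites. It had 33.3% at 41449188 and 40% at 41431981, where the other fertile cows were at 0% (ratio 1 at both), and 46.7% at 41475996 with the next at 76.9% (ratio 0.672). Subfertile cow 2 had 25% at 41574430 with the next at 81.8% (ratio 0.758), 84.6% at 41347572 with the next at 28.6% (ratio 0.662) and 45.5% at 41226405 with the others at 0% (ratio 1). It had 94.4% at 41050782 where the others had 100% (ratio 1).

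At 40935722 subfertile cow 4 had 92% and the others 100% (ratio 1). Subfertile cow 3 had 10% at 41321658 and 33.3% at 41325829, with the others at 0% (ratio 1 at both). Fertile cow 5 had 100% at 41325829 with the next at 52.9% (ratio 0.784) and 0% at 41099407 with the next at 44.4% (ratio 0.741). Fertile cow 1 had 0% at 41595200 with the next at 15.4% (ratio 0.646).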

How the results depend on the processing

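Of 60 alternative values over 7 FHIT results, 46 stayed within the tolerance set, which was a factor of 1.5 for counts and densities, the SD between cows for the mean difference and the 95% binomial interval for the share. Within it the density fell to 34.5 sites per 100 kb with strands joined, and the mean difference ran from -8.04 (median over sites) to -3.86 points (sites with values in all 12 cows). Assigning sites by nearest gene gave 32.2% higher sites and a mean difference of -13.5 points. Leaving out the genotype-like sites left 45 sites, with 35.6% higher and a mean difference of -10.4 points. Without each cow in turn, the mean difference ran from -7.42 to -4.84 points, the count of sites without overlap from 12 to 79, and the count of sites with a difference of at least 25 points from 310 to 383. The last of these was added after seeing the data. With values in all 12 cows required, 7 sites had no overlap. A gap of up to 5 kb gave 29 blocks, and a minimum of 5 sites gave 27. Blocks without overlap numbered 1 at a gap of 500 bases, 1 at 2 kb and 2 at 5 kb.

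No paired analysis was possible because the labels number no replicates across groups. Depth is unknown, only selected cytosines were analysed, and no cell counts or genotypes were used here.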
